A study of Mus musculus with 4 samples.

Results

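The receptors for prostaglandins and thromboxane, together with the prostaglandin uptake transporter, were compared between uteri of WT and Qa2- mice. The group was taken by gene symbol and holds 9 genes of the 55421 genes counted in each library. It comprises 4 receptors whose activation is known to contract uterine smooth muscle (Ptger1, Ptger3, Ptgfr and Tbxa2r), 4 receptors known to relax it (Ptger2, Ptger4, Ptgir and Ptgdr) and the transporter gene Slco2a1. Whole uteri were collected at gestational age E18.5 from 2 WT mice of the strain C57BL/6J and from 2 Qa2- mice of the strain B6.Cg-H2b3/FlaCmwJ, and a poly(A)-enriched, strand-specific library was made from a frozen piece of each uterus. The Qa2- strain is an H2 congenic line on the C57BL/6 background and not a knockout of a single gene, and both groups came from syngeneic matings. WT and Qa2- animals were obtained from different breeders, so breeder, H2 segment and loss of Qa-2 cannot be told apart.

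Prostanoids are made from arachidonic acid by the cyclooxygenases and by one terminal synthase per product, and they act on G protein-coupled receptors of neighbouring cells. PGE2 has 4 receptors, EP1 to EP4, encoded by Ptger1 to Ptger4. PGF2α acts on FP (Ptgfr), prostacyclin on IP (Ptgir), PGD2 on DP1 (Ptgdr) and thromboxane A2 on TP (Tbxa2r). EP1 and FP raise calcium, TP couples to Gq and to G12/13, EP3 mainly lowers cAMP through Gi, and EP2, EP4, IP and DP1 raise cAMP through Gs. Slco2a1 carries prostaglandins from outside into the cell, where they are broken down. In the uterus these receptors are known from the control of contraction near term, of blood vessels and of the endometrium.

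Total counts were between 33286390 and 41041299 read pairs per library, with both WT libraries deeper, and the floor of 3 counts was between 0.0731 and 0.0901 CPM (counts scaled to the library total), which covers counting error only. H2-Q6 and H2-Q7, the Qa-2 genes in the files, had between 1192 and 6318 counts in WT and between 2 and 4 counts in Qa2- libraries, as labelled. Smooth muscle markers were detected in every library, with summed levels of the 8 genes between 13493 and 43084 CPM, and so were the 8 markers of uterine epithelium, between 1228 and 3163 CPM. Markers of fetal tissue stood apart in 2 libraries. The 4 yolk sac genes summed to 480 CPM in Qa2- 1 and to at most 43.9 CPM in the others. The 5 trophoblast genes summed to 18.6 CPM in WT 2 and 3.29 CPM in Qa2- 1, against 0.0975 CPM in WT 1 and 0.150 CPM in Qa2- 2, and 2 of them, Gcm1 and Ctsq, were at 0 in all libraries.

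All 9 genes passed the filter of at least 1 CPM in at least 2 libraries. Because their counted exon lengths range from 1919 bases for Tbxa2r to 13545 bases for Slco2a1, levels of different genes were compared as CPM per kb of that length. By the mean over the 4 libraries the order was Slco2a1 (6.65 CPM per kb), Ptger4 (5.89), Ptger3 (5.39), Tbxa2r (4.96), Ptgdr (3.15), Ptger1 (2.54), Ptgir (1.14), Ptger2 (0.794) and Ptgfr (0.251). The ranges over libraries of the first 4 genes overlapped, and so did those of each further pair of neighbours except Ptger1 and Ptgir. Ptger1 did not go below 1.71 CPM per kb and Ptgir did not exceed 1.24 CPM per kb. The order differed between groups. By the WT means it began with Slco2a1 (8.25 CPM per kb), Tbxa2r (6.46), Ptger3 (4.91) and Ptger4 (4.30), and by the Qa2- means with Ptger4 (7.49), Ptger3 (5.86), Slco2a1 (5.05), Ptgdr (3.62) and Tbxa2r (3.47). Ptgfr, the gene of the PGF2α receptor FP, was lowest in 3 of the 4 libraries, from 0.151 to 0.334 CPM per kb on 42 to 79 counts. In WT 2 it was level with Ptger2, at 0.288 and 0.283 CPM per kb.

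**Figure D1:**
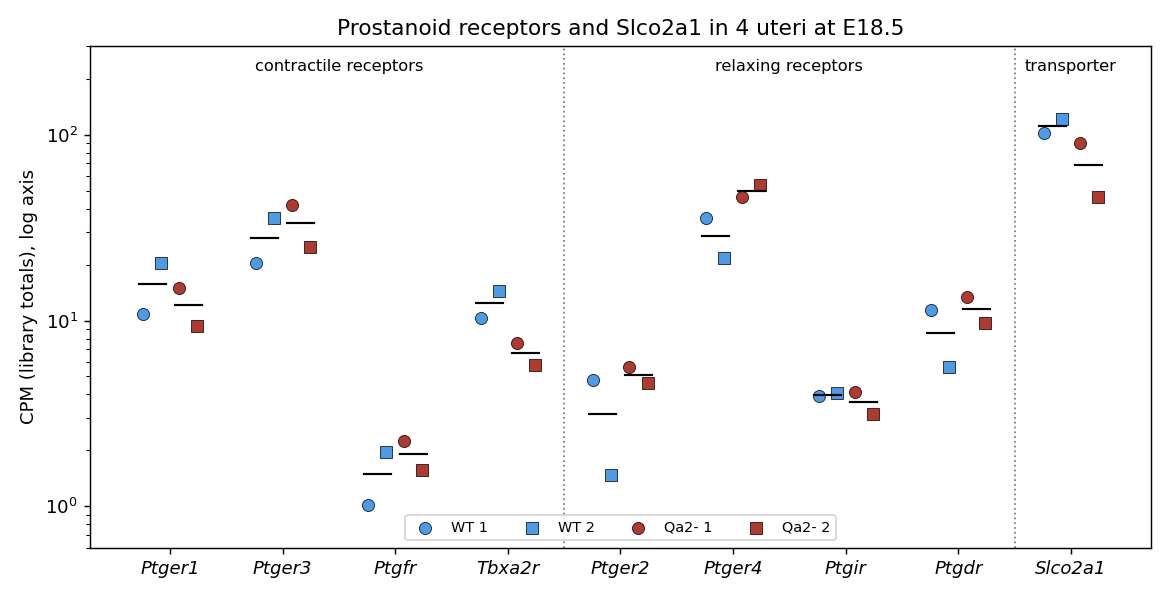
CPM on library totals (log axis) of the 4 contractile receptors, the 4 relaxing receptors and Slco2a1 in each of the 4 libraries, with WT in blue, Qa2- in red, replicate 1 as circles, replicate 2 as squares and group means as lines. The points of the groups overlap for 6 of the 9 genes and are separate for Tbxa2r, Ptger4 and Slco2a1.

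The upstream sequences of 3 receptors are shown because they are the receptor of each class with the highest mean level per length (Ptger3 and Ptger4) and the receptor with the largest fold change of the group (Tbxa2r). Each window holds the 250 bases before a transcription start site in RefSeq on GRCm38.p6, 5′ to 3′ on the strand of the gene. The windows lie at chr3:157566626-157566875 (plus strand) for Ptger3, chr15:5244188-5244437 (minus strand) for Ptger4 and chr10:81328453-81328702 (plus strand) for Tbxa2r, the last being the one of 2 start sites nearer to the counted gene. Capitals mark the motifs GGGCGG (GC box), CCAAT and TGACG on either strand, so that CCGCCC is a GC box on the opposite strand.
Ptger3: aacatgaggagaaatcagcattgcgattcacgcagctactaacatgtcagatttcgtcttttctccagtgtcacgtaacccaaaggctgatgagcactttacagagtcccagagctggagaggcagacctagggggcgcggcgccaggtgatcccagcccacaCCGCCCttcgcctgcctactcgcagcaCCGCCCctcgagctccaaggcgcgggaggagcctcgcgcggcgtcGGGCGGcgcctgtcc
Ptger4: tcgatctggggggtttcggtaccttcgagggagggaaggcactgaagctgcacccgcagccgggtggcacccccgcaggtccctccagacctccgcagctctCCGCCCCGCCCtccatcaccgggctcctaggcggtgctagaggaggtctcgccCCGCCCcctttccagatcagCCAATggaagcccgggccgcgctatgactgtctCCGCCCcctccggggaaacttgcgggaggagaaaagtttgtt
Tbxa2r: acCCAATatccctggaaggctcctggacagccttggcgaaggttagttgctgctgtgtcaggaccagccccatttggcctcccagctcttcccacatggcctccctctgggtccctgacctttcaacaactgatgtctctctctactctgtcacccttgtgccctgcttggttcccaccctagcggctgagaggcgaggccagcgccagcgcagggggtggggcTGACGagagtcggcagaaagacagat
The Ptger3 window held 3 GC boxes and 21 CpG dinucleotides, and the Ptger4 window held 4 GC boxes, of which a pair share a base, 1 CCAAT and 19 CpG dinucleotides. Tbxa2r had no GC box, 1 CCAAT, 1 TGACG and 7 CpG dinucleotides, against a median of 6 over all 32851 windows. GGGCGG occurs in 32.7% of all such windows, CCAAT in 33.8% and TGACG in 17.8%. TATAAA (12.4% of all windows) and the CArG box (1.47%) were also searched on both strands and had no match in these 3 windows. Among the 8 genes of the group with a window, TATAAA was found in that of Slco2a1 alone and the CArG box in none. The Slco2a1 window lies before a start site 19775 bases from the start of the counted gene. Ptger1 has no entry in the table used.

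Among the contractile receptors, Ptger1 (ENSMUSG00000019464; GRCm38 chromosome 8, 83666678 to 83672753, plus strand), the gene of EP1, had 10.8 and 20.5 CPM in WT 1 and WT 2 and 14.9 and 9.31 CPM in Qa2- 1 and Qa2- 2. Both groups spread widely and the Qa2- values overlapped the WT values.

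Ptger3 (ENSMUSG00000040016; chromosome 3, 157566892 to 157645888, plus strand), the gene of EP3, had 20.4 and 35.5 CPM in WT against 41.8 and 24.9 CPM in Qa2- uteri. The highest and the lowest value thus lay in different groups while the other libraries were in between, and the groups overlapped. The count is per gene and does not separate the splice forms of EP3. Ptgfr (ENSMUSG00000028036; chromosome 3, 151796502 to 151837630, minus strand) had 1.02 and 1.95 CPM in WT and 2.26 and 1.56 CPM in Qa2- uteri. Counting error alone (1 SD) reaches 15.4% of its value in WT 1, and the groups overlapped.

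Tbxa2r (ENSMUSG00000034881; chromosome 10, 81328731 to 81335172, plus strand), the thromboxane receptor of smooth muscle and platelets, was the contractile receptor whose groups did not overlap. It had 10.3 and 14.5 CPM in WT and 7.53 and 5.77 CPM in Qa2- uteri, a mean of 12.4 ± 2.98 CPM (SD, n = 2) against 6.65 ± 1.25 CPM (SD, n = 2). The log2 fold change of WT over Qa2- was 0.99 (standard error 0.30, 95% interval 0.24 to 1.75), a 1.99-fold higher level in WT. The difference did not pass the threshold after adjustment over all genes (edgeR quasi-likelihood, adjusted p = 0.281). Leaving out each library in turn gave log2 fold changes between 0.70 (without WT 2) and 1.22 (without Qa2- 1).

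Of the relaxing receptors, Ptger4 (ENSMUSG00000039942; chromosome 15, 5206661 to 5244187, minus strand), the gene of EP4, was the most abundant and the one whose groups did not overlap. It had 35.5 and 21.7 CPM in WT against 46.0 and 53.6 CPM in Qa2- uteri, a mean of 28.6 ± 9.74 CPM (SD, n = 2) against 49.8 ± 5.32 CPM (SD, n = 2). Its log2 fold change of -0.71 (standard error 0.26, 95% interval -1.37 to -0.047) stands for a 1.63-fold higher level in Qa2- uteri. This difference also missed the threshold (edgeR quasi-likelihood, adjusted p = 0.314). It depended in size on WT 2, without which it was -0.41, and it was -1.11 without WT 1.

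Ptger2 (ENSMUSG00000037759; chromosome 14, 44988195 to 45003820, plus strand), the gene of EP2, which in the endometrium is known from stroma and epithelium at implantation, had 4.78 and 1.47 CPM in WT and 5.61 and 4.63 CPM in Qa2- uteri. WT 2 alone was low, with 58 counts, while the other 3 libraries had between 154 and 196 counts. Ptgdr (ENSMUSG00000071489; chromosome 14, 44851235 to 44859375, minus strand), the gene of DP1, showed the same single low library, with 11.5 CPM in WT 1, 5.61 CPM in WT 2, 13.4 CPM in Qa2- 1 and 9.64 CPM in Qa2- 2. Without WT 2 the log2 fold changes of Ptger2 and Ptgdr were -0.025 and 0.065, and without WT 1 they were -1.71 and -0.96, compared with -0.63 and -0.35 from all libraries. Ptgdr was -0.067 without Qa2- 1 and -0.59 without Qa2- 2.

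Ptgir (ENSMUSG00000043017; chromosome 7, 16906490 to 16910905, plus strand), the prostacyclin receptor gene, had the smallest spread of the group over the 4 libraries. It had 3.92 and 4.06 CPM in WT and 4.12 and 3.15 CPM in Qa2- uteri, and both WT values lay within the range of the Qa2- values. Its log2 fold change was 0.22 (95% interval -0.56 to 1.01), so that a difference up to about the size seen for Tbxa2r is inside the interval. It was 0.019 without Qa2- 2 and 0.45 without Qa2- 1.

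Slco2a1 (ENSMUSG00000032548; chromosome 9, 102988712 to 103096002, plus strand) had 102.4 and 121.0 CPM in WT against 90.5 and 46.4 CPM in Qa2- uteri. Both WT libraries were above both Qa2- libraries, and Qa2- 2 was the lowest by far. The mean was 111.7 ± 13.2 CPM (SD, n = 2) against 68.5 ± 31.1 CPM (SD, n = 2), and WT over Qa2- was 0.79 on the log2 scale (standard error 0.36, 95% interval -0.11 to 1.70), which missed the threshold (edgeR quasi-likelihood, adjusted p = 0.366). The log2 fold change was 0.37 without Qa2- 2 and 1.38 without Qa2- 1.

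Across the group, edgeR's quasi-likelihood test called 0 of the 9 genes at an adjusted p of 0.05, and 0.0% of the 14492 genes compared. DESeq2's Wald test, which called 4.83% of all genes, called 0 of the 9, and its smallest adjusted p in the group was 0.0868 for Tbxa2r. At an unadjusted p under 0.05, edgeR found 1 gene of the group higher in WT (8.09% of all genes) and 1 lower in WT (7.09% of all genes). This count of 2 became 0 without WT 2, 0 without Qa2- 2 and 4 without WT 1. Without Qa2- 1 it was again 2, but of Tbxa2r and Slco2a1, both higher in WT, in place of Tbxa2r and Ptger4. The count over all genes was 2199 with all libraries and between 776 (without Qa2- 2) and 2242 (without WT 1) with a library left out. The groups did not overlap for 3 of the 9 genes, beside 50.0% of all genes with no overlap in either direction. Tbxa2r and Slco2a1 were higher in both WT libraries, an order seen in 25.4% of all genes, and Ptger4 was lower, an order seen in 24.5%. In 7 of the 9 genes the gap between 2 libraries of one group exceeded the difference between the group means on the log2 scale, as it did in 63.7% of all genes. The median log2 fold change was -0.16 in the group and 0.012 over all genes. An exact permutation test on any one gene could not give a two-sided p under 0.333 with so few mice (n = 2 each).

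**Figure D2:**
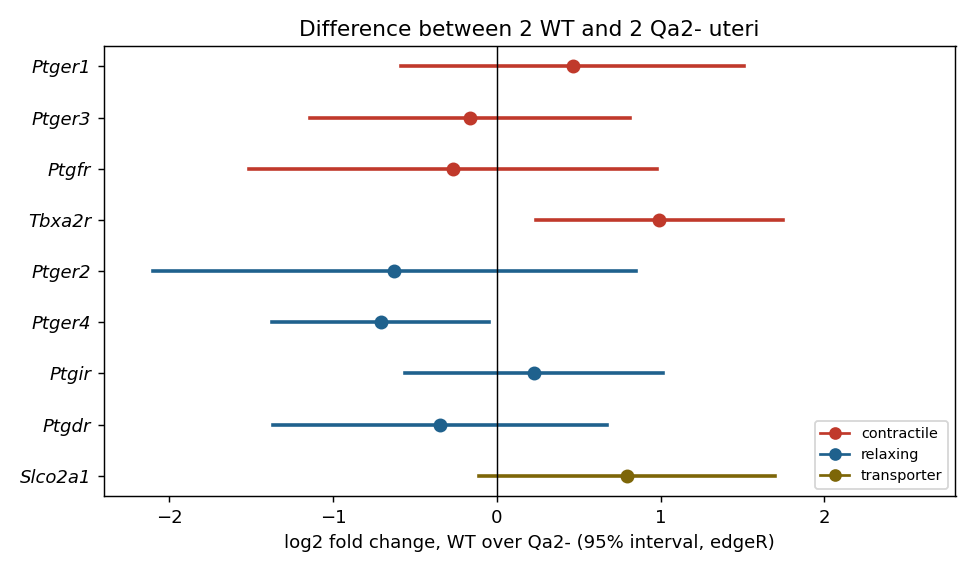
Log2 fold change of WT over Qa2- uteri (x axis) for each of the 9 genes, as points with 95% intervals from edgeR's quasi-likelihood fit of 2 WT and 2 Qa2- libraries. The intervals of Tbxa2r (0.24 to 1.75) and Ptger4 (-1.37 to -0.047) lie on one side of 0 before adjustment over all genes, and the other 7 include 0.

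The remaining contractile receptors had small differences with wide intervals. The log2 fold change was 0.46 for Ptger1 (95% interval -0.58 to 1.51), -0.16 for Ptger3 (-1.14 to 0.81) and -0.27 for Ptgfr (-1.51 to 0.98). All of them turned direction when a library was left out. Ptger1 was -0.093 without WT 2, Ptger3 was 0.17 without WT 1 and 0.28 without Qa2- 1, and Ptgfr was 0.11 without WT 1 and 0.05 without Qa2- 1. When WT 1 was set against Qa2- 2 alone, the library of each group with the lower sums of fetal markers, Tbxa2r was 0.94, Ptger4 -0.49 and Slco2a1 1.24 on the log2 scale, in the direction seen with all libraries. The groups of these genes did not overlap, so any pair of 1 WT and 1 Qa2- library gives that direction. In WT 1 against Qa2- 2, Ptger2 was 0.15 and Ptgdr 0.35, opposite to the direction with all libraries. The other pair, WT 2 against Qa2- 1, gave -1.84 for Ptger2, -1.17 for Ptgdr, -1.001 for Ptger4, 1.03 for Tbxa2r and 0.51 for Slco2a1. Each pair is 1 library against 1, chosen with the data in view, and has no test.

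Next, contractile receptors were set against relaxing receptors in each uterus. Summed over the 4 receptors of each class, contractile receptors had 11.1 CPM per kb and relaxing receptors 11.0 CPM per kb in WT 1, and the sums were 17.8 and 6.52 CPM per kb in WT 2. In Qa2- 1 the sums were 14.3 and 13.4 CPM per kb, and in Qa2- 2 they were 9.32 and 12.9 CPM per kb. The ratio of contractile to relaxing receptors was therefore 1.004 in WT 1, 2.73 in WT 2, 1.07 in Qa2- 1 and 0.721 in Qa2- 2. WT 2 stood above the other 3 libraries, and WT 1 was below Qa2- 1, so the groups overlapped. On the log2 scale the mean was 0.73 ± 1.02 (SD, n = 2) in WT and -0.19 ± 0.40 (SD, n = 2) in Qa2- uteri. The difference of 0.92 was slightly above the pooled SD of 0.78 and was not tested, because the receptors were chosen with results known. It was 0.20 without WT 2 and 1.64 without WT 1.

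The make-up of each class also differed between libraries. Tbxa2r held 48.4% and 42.4% of the contractile sum in WT 1 and WT 2, and 27.4% and 32.2% in the Qa2- libraries. Ptger3 held 32.4% and 35.0% in WT and 51.3% and 47.0% in Qa2- uteri. Thus the leading contractile receptor by level per length was TP in both WT libraries and EP3 in both Qa2- libraries. Ptger3 itself overlapped between groups and Tbxa2r did not, beside 50.0% of all genes without overlap. In CPM not divided by length, Ptger3 was above Tbxa2r in every library. It had 20.4 against 10.3 CPM in WT 1, 35.5 against 14.5 in WT 2, 41.8 against 7.53 in Qa2- 1 and 24.9 against 5.77 in Qa2- 2. Ptger4 led the relaxing class in every library, with 48.4% to 62.4% of the sum. Within the PGE2 receptors alone, EP1 and EP3 together were 0.889 times EP2 and EP4 in WT 1, 2.82 times in WT 2, 1.26 times in Qa2- 1 and 0.680 times in Qa2- 2, and the groups overlapped. The ratio of the thromboxane receptor to the prostacyclin receptor, which act oppositely on vessels, was 4.55 and 6.20 in WT and 3.17 and 3.18 in Qa2- uteri. The groups did not overlap, as for Tbxa2r itself, which is the numerator, beside 50.0% of all genes without overlap.

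**Figure D3:**
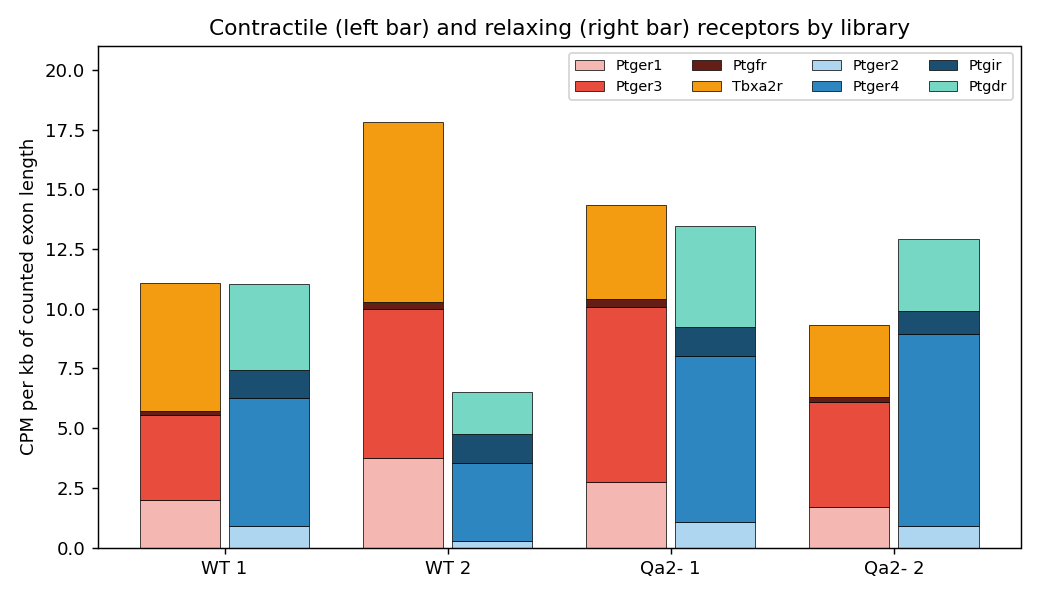
Level per length (CPM per kb of counted exon length, y axis) of the contractile receptors (left bar) and the relaxing receptors (right bar) of each library, stacked by gene. WT 2 has the tallest contractile bar (17.8) and the shortest relaxing bar (6.52), and in Qa2- 2 the relaxing bar is the taller one.

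Libraries of one group differed in the receptors together with markers of tissue layers. The 4 contractile receptor genes were each between 1.41 and 1.91 times as high in WT 2 as in WT 1, and each between 1.31 and 1.68 times as high in Qa2- 1 as in Qa2- 2. The summed smooth muscle markers were 1.63 and 1.80 times as high in the same library pairs. Sums of mast cell (1.59 and 1.27 times), erythroid (1.94 and 1.48), leukocyte (1.23 and 1.14), platelet (1.26 and 1.13) and mesothelial markers (1.06 and 1.73) were also higher in both pairs. Yolk sac and trophoblast sums were too, while endothelial (0.867 and 1.03) and stromal sums (0.932 and 1.15) went in opposite directions. Ptger2, Ptger4 and Ptgdr in WT 2 were 0.308, 0.611 and 0.490 times their level in WT 1, and the summed epithelial markers 0.583 times. Ptgir, the other relaxing receptor gene, was 1.04 times its WT 1 level in WT 2. In Qa2- 1 the epithelial sum was 0.979 times that in Qa2- 2, and Ptger2, Ptger4 and Ptgdr were 1.21, 0.860 and 1.39 times theirs, and Ptgir 1.31 times. By group, all 8 smooth muscle markers had positive log2 fold changes, 6 of them without overlap (sums of 26437 and 43084 CPM in WT against 24348 and 13493 CPM). All 8 epithelial markers had negative ones, 7 without overlap (2105 and 1228 CPM against 3096 and 3163 CPM). Of all genes, 25.4% were higher and 24.5% lower in both WT libraries. No smooth muscle or epithelial marker was at 0. The part of these markers in the receptor values was not tested, and in whole tissue fewer cells of a type cannot be told apart from less RNA per cell.

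Markers of other cell types were read in the same way, beside the same shares of all genes. All 7 endothelial markers were higher in both WT libraries, with sums of 1150 and 996 CPM against 547 and 532 CPM in Qa2- uteri, beside Slco2a1 and Tbxa2r, which are also known from endothelium and vessel walls. The 5 erythroid genes, a sign of blood in the tissue, summed to 356 and 691 CPM in WT against 118 and 79.5 CPM, with no overlap for any of the 5. The 6 platelet markers had overlapping sums of 30.2 and 38.0 CPM in WT and 32.8 and 29.1 CPM in Qa2- uteri, but the 3 of them that passed the filter did not overlap and went in opposite directions. Pf4 was higher in both WT libraries, and Itga2b and Ppbp were lower in both. The defining platelet gene Gp1bb had at most 2 counts, and Gp9 was between 0 and 14 counts. Mast cell markers, 5 genes of a cell type known to express EP3, had sums of 47.3 and 75.4 CPM in WT and 85.0 and 67.0 CPM in Qa2- uteri, and no marker was at 0. Of 8 leukocyte markers 5 passed the filter, of which Lyz2, Itgam and Adgre1 were higher and Ptprc lower in both WT libraries, with sums of 740 and 907 CPM against 591 and 516 CPM. Of the 4 mesothelial markers, 3 (Upk3b, Msln and Lrrn4) were higher in both WT libraries and Wt1 overlapped. Upk3b had 23.2 and 16.4 CPM in WT against 2.15 and 1.77 CPM in Qa2- uteri. The mesothelial sums were 120 and 127 CPM in WT against 105 and 60.8 CPM. The 6 markers of decidual and endometrial stroma summed to 669 and 623 CPM in WT and 560 and 486 CPM in Qa2- uteri, with 2 of them higher in both WT libraries. Of the markers, edgeR called 0 after adjustment, and DESeq2 called 6 of 7 endothelial, 5 of 5 erythroid, 2 of 8 smooth muscle, 2 of 8 epithelial, 2 of 4 mesothelial and 1 of 8 leukocyte genes, beside 4.83% of all genes. The part of endothelium, blood, platelets, leukocytes, mesothelium, stroma and mast cells in the receptor values was not tested.

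**Figure D4:**
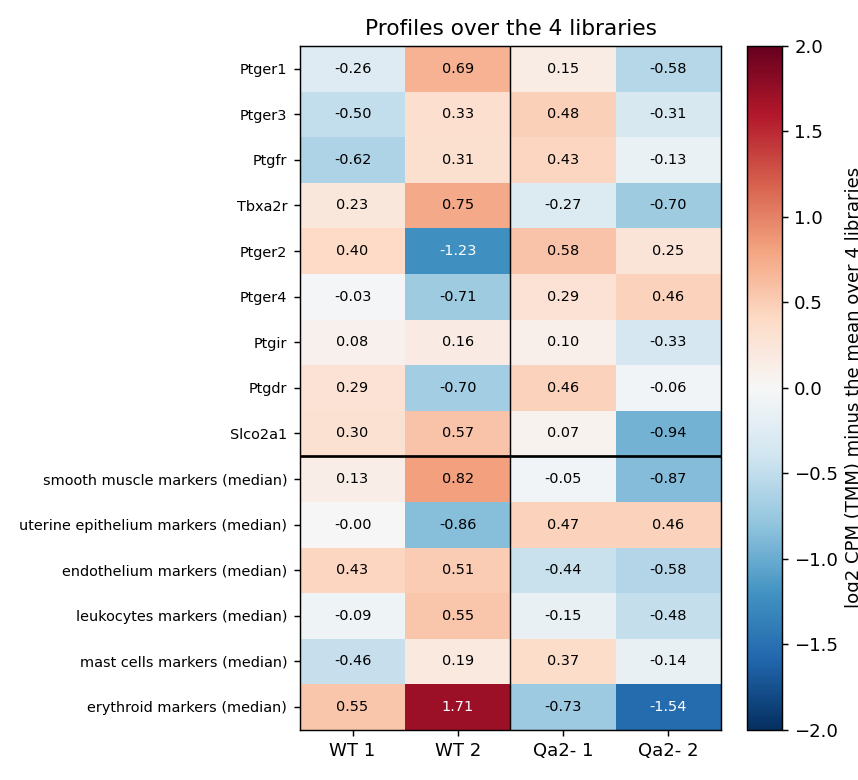
Log2 CPM on TMM-scaled library sizes minus the mean over the 4 libraries, for each of the 9 genes (above the line) and as the median of 6 marker lists (below), with red above and blue below the mean. Ptger2, Ptger4, Ptgdr and the epithelial median are lowest in WT 2 (-1.23, -0.71, -0.70 and -0.86).

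The genes closest to each receptor gene in their profile over the 4 libraries were found by the root mean square difference of centred log2 CPM among 14491 other genes. Fnbp1 was closest to Ptger1 (0.0125), Vcan, a matrix proteoglycan gene, to Ptger3 (0.0292), Creb3l1 to Ptgfr (0.0220) and Aifm2 to Tbxa2r (0.0228). P2rx2 was closest to Ptger2 (0.0671), Mastl to Ptger4 (0.0163), Tent5b to Ptgir (0.0107) and Slc22a4 to Ptgdr (0.0437). With 4 libraries such closeness is a description only.

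The genes that make prostanoids were then compared. Of 14 synthesis genes 13 passed the filter, 0 were called by edgeR or DESeq2 after adjustment, and the median log2 fold change was 0.12. At an unadjusted p under 0.05 there was 1 gene in each direction, beside 8.09% of all genes higher and 7.09% lower in WT, and none was left without WT 1 or without Qa2- 2. Ptgs2, the inducible cyclooxygenase, had 149 and 126 counts in WT and 68 and 41 counts in Qa2- uteri. This is 3.41 ± 0.306 CPM against 1.59 ± 0.506 CPM (SD, n = 2 each), or 1.19 on the log2 scale (edgeR quasi-likelihood, adjusted p = 0.294). Hpgds, the PGD2 synthase of haematopoietic cells, was on the other side, with 89.7 ± 7.73 CPM against 131.5 ± 3.67 CPM and -0.46 on the log2 scale (edgeR quasi-likelihood, adjusted p = 0.308). Ptgs1, the constitutive cyclooxygenase, was between 46.7 and 85.4 CPM per kb and Ptgs2 between 0.269 and 0.793 CPM per kb. Ptgs1 had 264 ± 95.4 CPM in WT and 225 ± 61.4 CPM in Qa2- uteri, and its groups overlapped. Pla2g2a was at 0 in all libraries.

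For breakdown and export, 5 of 5 genes passed the filter, with a median log2 fold change of 0.69. Hpgd, the enzyme that inactivates prostaglandins after uptake by Slco2a1, had 22.5 ± 1.28 CPM in WT and 13.1 ± 2.92 CPM in Qa2- uteri, or 0.87 on the log2 scale (edgeR quasi-likelihood, adjusted p = 0.271). Slco3a1, another organic anion transporter known to carry prostaglandins, had 67.1 ± 2.64 CPM against 33.8 ± 9.39 CPM (SD, n = 2 each). Its log2 fold change of 1.08 missed the threshold with edgeR (adjusted p = 0.248) and passed it with DESeq2's Wald test (adjusted p = 0.0145). Like Slco2a1, 3 of the 5 genes were higher in both WT libraries, an order seen in 25.4% of all genes. These were Hpgd, Slco3a1 and Ptgr1, a prostaglandin reductase gene with 42.8 and 53.4 CPM in WT against 38.8 and 24.5 CPM. Hpgd and Slco3a1 were the 2 genes of the list at an unadjusted p under 0.05, beside 8.09% of all genes in that direction. The count was 4 without WT 1, 3 without Qa2- 1, 2 without WT 2 and 1 without Qa2- 2. Abcc4, an exporter of prostaglandins, had 160.6 and 70.6 CPM in WT against 209.0 and 185.0 CPM in Qa2- uteri, lower in both WT libraries and lowest in WT 2.

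Downstream of the receptors, the 17 genes of Gq and G12/13 signalling had a median of 0.046 on the log2 scale, with 0 genes at an unadjusted p under 0.05 higher in WT and 2 lower (8.09% and 7.09% of all genes). Without WT 2 or without Qa2- 2 the count was 0. The 2 genes were Itpr2, an IP3 receptor (25.0 ± 3.71 CPM in WT against 38.1 ± 5.07 CPM), and Rgs2, which limits Gq signalling and is known to respond to cAMP (279 ± 34.8 CPM against 472 ± 47.0 CPM, log2 fold change -0.66). Of the 20 genes of Gs and cAMP signalling, which had a median of 0.16, 3 were at an unadjusted p under 0.05 higher in WT (Adcy2, Adcy8 and Pde4b) and 1 was lower, beside the same shares of all genes, and the count of 4 became 2 without Qa2- 2. The gene lower in WT was the adenylyl cyclase gene Adcy1, which had 44 and 68 counts in the WT libraries and 206 and 307 in the Qa2- libraries. Its log2 fold change of -2.33 (standard error 0.41) did not pass edgeR's test (adjusted p = 0.246) and passed DESeq2's (adjusted p = 8.2e-05). Adcy8 went the other way, with 4.92 and 7.01 CPM in WT against 3.29 and 1.53 CPM. By level per length, Adcy5 (11.1 to 21.7 CPM per kb) and Adcy6 (9.10 to 15.1) were above Adcy1 (0.0856 to 0.737) and Adcy8 (0.188 to 0.859) in every library. The 3 Gi genes had log2 fold changes between -0.47 (Gnai1) and 0.36 (Gnai2). edgeR called 0 genes of the 3 signalling lists after adjustment.

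**Figure D5:**
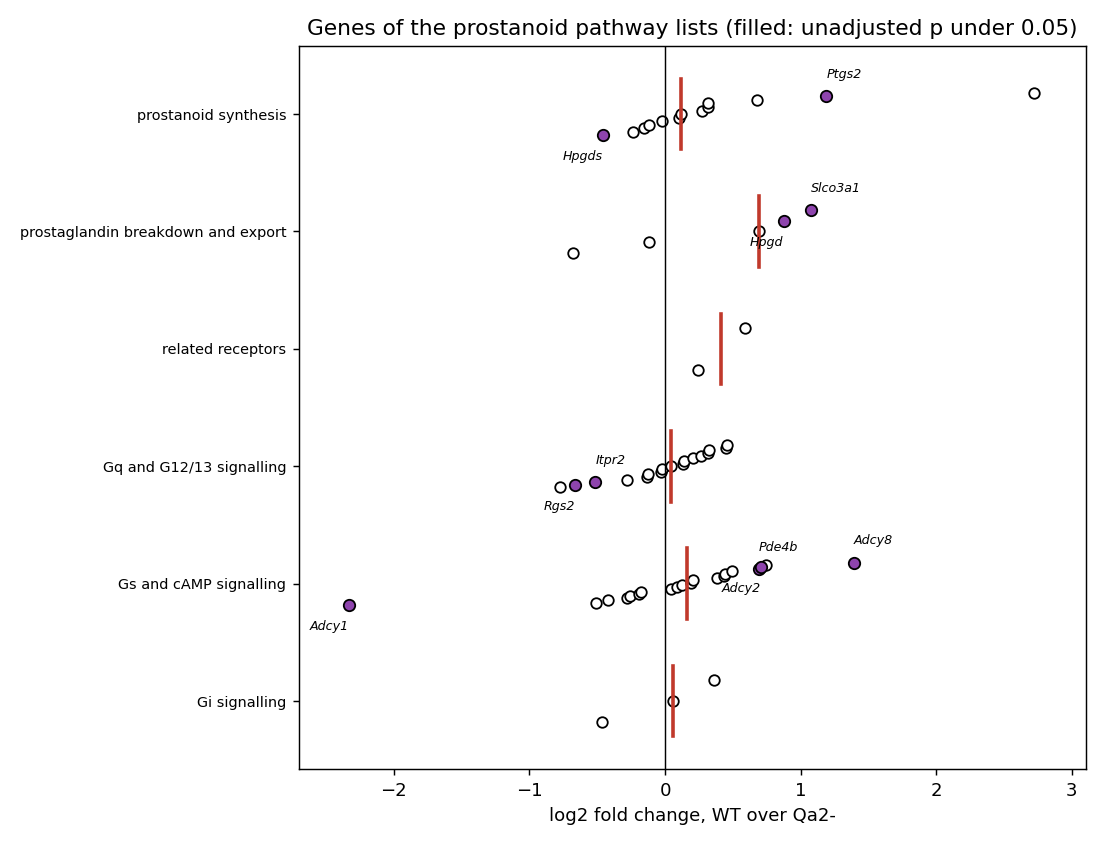
Log2 fold change of WT over Qa2- uteri (x axis) for the genes kept in each of 6 pathway lists, with one point per gene, filled where the unadjusted edgeR p was under 0.05, and the list median as a red line. Most genes lie close to 0, with Adcy1 at -2.33 and Ptgds at 2.72 as the extremes.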

How the data were processed

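Uteri of 2 WT and 2 Qa2- mice at E18.5 were analysed, with 1 library per mouse and groups taken from the sample titles. The authors deposited raw counts, that is, whole numbers of read pairs assigned to each gene. Per the file headers they were made with featureCounts 2.0.0 on GRCm38, on the reverse strand. Both ends had to map, with quality 3 or more, and pairs with several positions or genes were left out. The submitters' processing notes name STAR 2.7.3a. Of 55421 identifiers, 55240 were matched to symbols in GENCODE M21, among them all 9 members.

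CPM use library totals. The filter was 1 CPM or more in no fewer than 2 samples, the threshold that the study's methods state. It left fewer genes here than the study's text gives, and the cause of that difference was not tested. Those methods name no test for the transcriptome. Counts were normalized by TMM (factors between 0.957 and 1.05) and compared with edgeR 4.0.16 (quasi-likelihood test, R 4.3.3) over all 14492 genes with Benjamini-Hochberg adjustment. The standard error is the log2 fold change divided by the square root of F, and 95% intervals use the t distribution. The steps were tested on simulated counts. Alternatives were DESeq2 1.42.0, other scalings and filters, a replicate block and leaving out each library. The crossed pairing and single pairs of libraries were chosen with the data in view. The titles call the libraries separate samples, and a check for a library deposited more than once found none (a mean chi-square per gene of 240.8 between the WT and 150.9 between the Qa2- libraries), which says nothing more about the replicates.

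The members and lists were chosen with earlier results of these data known. The text names all members and, in each pathway list, the genes at an unadjusted p under 0.05. Some further genes of these lists are named, but not always those with the largest change. Itpr3 (log2 fold change -0.77), Ptgis (0.68) and Gnai3 (0.061) are not described elsewhere. The leading and absent markers are also named. Of the genes nearest in profile to the members, the nearest is printed for the receptor genes. Not all others are printed, and 1 overlap between annotated genes and 1 nearest profile are not reported here. Ptgs1, Pla2g2a, Abcc4, Adcy5, Adcy6, Gp9, Prl8a2, the other markers named singly and the low receptor genes under the other observations were chosen after their values were seen. Promoter windows are from RefSeq (GRCm38.p6), with 8 of 9 members matched.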

Additional observations from a re-analysis of the deposited data

How the results depend on the processing

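No member was called under any alternative run, and the smallest adjusted p was 0.0868 (Tbxa2r, DESeq2). Over all genes, 0 were called by edgeR, against 700 with DESeq2, 61 without a filter and 2 with the replicate block, and between 0 and 45 when single libraries were dropped, where the lone library of a group is assumed to vary like the others (45 without WT 2). DESeq2 called 1 gene of breakdown and export (Slco3a1) and 1 of cAMP signalling (Adcy1). The cause of these changes was not tested. Same-numbered libraries had deviations from the group means that correlated at -0.37, and the numbers were not taken as pairs. The replicate block changed no adjusted call among the members or lists but lowered counts at an unadjusted p under 0.05, from 2 to 1 for the members, from 2 to 1 for synthesis, from 2 to 0 for Gq and G12/13 signalling and from 4 to 3 for cAMP signalling. The difference of the contractile to relaxing ratio is 0.92 with the block by construction, which says nothing of its stability. The crossed pairing, chosen with the data in view, called 0 genes after adjustment and raised the counts at an unadjusted p under 0.05, to 3625 from 2199 over all genes, to 3 for the members, 4 for synthesis, 5 for Gq and G12/13 signalling and 9 for cAMP signalling. With each library left out, log2 fold changes ran from -0.093 to 0.87 for Ptger1, from -0.64 to 0.28 for Ptger3, from -0.83 to 0.11 for Ptgfr from -0.96 to 0.065 for Ptgdr, from -1.71 to -0.025 for Ptger2 and from 0.019 to 0.45 for Ptgir, and the ratio difference ran from 0.20 to 1.64. In WT 1 against Qa2- 2 alone, chosen after the data were seen, Ptger2 was 0.15 and Ptgdr 0.35. Tbxa2r and Slco2a1 stayed positive and Ptger4 negative under all alternatives run, and Ptgir, whose groups overlapped, also stayed positive. The groups of Tbxa2r, Slco2a1 and Ptger4 did not overlap. Their direction in single pairs or with a library left out was thus largely set beforehand and says nothing of its stability. Of 117 single values of members under alternatives, 8 changed sign, all of them with a library left out or in a single pair of libraries. The other settings kept all libraries and changed only the scaling, filter, test or block. Depth limits Ptgfr most, on 42 to 79 counts.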

Other observations

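Ptgdr2, which encodes DP2, the other PGD2 receptor, had 9 and 33 counts in WT and 28 and 13 counts in Qa2- uteri and fell under the filter, as did the leukotriene receptor genes Ltb4r1, Ltb4r2 and Cysltr2. Cysltr1 had 5.02 and 10.8 CPM in WT against 7.67 and 3.51 CPM, with overlapping groups. Ptgfrn, which encodes a membrane partner of FP and not a receptor of its own, had between 213 and 276 CPM.

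A single library decided the value with the largest fold change of the synthesis list. Ptgds, the lipocalin-type PGD2 synthase, had 531 counts in WT 1, 11 in WT 2, 8 in Qa2- 1 and 64 in Qa2- 2. Prl8a2, a product of decidual cells, was also highest in WT 1, with 4387 counts against 77, 139 and 464. Both genes were second highest in Qa2- 2. They were set side by side after their values were seen.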
